A study of Mus musculus with 12 samples.

Results

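The 8 genes described here encode the main proteins of mouse milk: the caseins Csn1s1, Csn2, Csn1s2a, Csn1s2b and Csn3, the whey proteins Wap and Lalba, and the mucin-like Glycam1. They form a list of named genes, and all 8 were found among the 38924 genes of the count tables by Ensembl identifier. All 8 passed the filter on low counts, which left 16953 genes. Their normalised counts were compared in 12 bulk RNA-sequencing libraries from C57BL/6 mice, in 6 groups of 2.

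Every mouse carried a Cre recombinase and the ROSAmTmG reporter, which switches a cell and its descendants permanently to membrane GFP once Cre has been active. GFP therefore records past activity of the Cre driver, not its activity at the time of sorting. The driver was either Ucp1-iCre, which uses the regulatory region of the brown fat uncoupling protein, or Myf5-Cre, which uses that of a myogenic factor also active in precursors of brown fat. Mammary myoepithelial cells came from lactation day 10, GFP-positive and GFP-negative, from Ucp1-iCre-ROSAmTmG mice and likewise from Myf5-Cre-ROSAmTmG mice. The others were GFP-positive brown adipocytes of 8-week-old virgin Ucp1-iCre-ROSAmTmG females and of 8-week-old virgin Myf5-Cre-ROSAmTmG females. The mammary cells were sorted as lineage-negative, CD24-positive and CD29-high. The comparison with brown adipocytes therefore differs in tissue, in lactation and in the sort together, and these cannot be told apart.

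In the lactating gland, luminal alveolar cells make and secrete milk, and the basal myoepithelial cells around them contract to expel it. Prolactin acts through its receptor, Jak2 and Stat5 to switch on the casein and whey protein genes, with glucocorticoid and insulin signals. Caseins assemble with calcium phosphate into micelles that carry protein and minerals, and Csn3 coats and stabilises the micelle surface. Wap is the abundant whey protein of rodents. Lalba joins the galactosyltransferase B4galt1 to form lactose synthase, and Glycam1 is a mucin-like glycoprotein of milk that was first known from the high endothelial venules of lymph nodes.

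The 5 casein genes lie together on mouse chromosome 5 (chr5:87666208-87932665, mm10, 266458 bases). Wap lies on chromosome 11 (chr11:6635482-6638637, minus strand), Lalba on chromosome 15 (chr15:98480400-98482721, minus strand) and Glycam1 on the same chromosome (chr15:103562759-103565081, minus strand). The RefSeq promoter table (GRCm38.p6, the same assembly as mm10) held 6 of the 8 genes. The palindromic letters TTCNNNGAA, which read the same on both strands and are the core of a Stat5-type site, occurred in the 250 bases upstream of 3 of these 6, against 7.02% of 32851 promoters of the table. Below are the upstream windows of the member with the most counts (Csn2, chr5:87699426-87699675, minus strand), the other casein with these letters (Csn1s1, chr5:87665958-87666207, plus strand), the member with the largest fall (Glycam1, chr15:103565082-103565331, minus strand), and a gene that also fell but lacks these letters (Wap, chr11:6638650-6638899, minus strand). Each is read 5′ to 3′ on the gene's strand up to the base before the start, and capitals mark TTCNNNGAA.
Csn2: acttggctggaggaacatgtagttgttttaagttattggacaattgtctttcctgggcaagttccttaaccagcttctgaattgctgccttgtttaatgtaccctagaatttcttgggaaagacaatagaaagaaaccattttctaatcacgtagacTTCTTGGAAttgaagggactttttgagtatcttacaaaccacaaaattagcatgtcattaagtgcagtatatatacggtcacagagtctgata
Csn1s1: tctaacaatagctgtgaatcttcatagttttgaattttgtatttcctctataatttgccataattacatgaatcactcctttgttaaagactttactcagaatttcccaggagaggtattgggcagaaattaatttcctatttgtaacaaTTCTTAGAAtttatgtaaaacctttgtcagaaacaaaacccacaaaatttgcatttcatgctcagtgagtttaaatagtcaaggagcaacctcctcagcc
Glycam1: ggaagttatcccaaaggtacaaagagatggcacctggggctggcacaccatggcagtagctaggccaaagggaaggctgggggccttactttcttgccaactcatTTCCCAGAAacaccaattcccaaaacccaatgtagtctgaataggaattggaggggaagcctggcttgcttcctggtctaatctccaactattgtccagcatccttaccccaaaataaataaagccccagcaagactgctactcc
Wap: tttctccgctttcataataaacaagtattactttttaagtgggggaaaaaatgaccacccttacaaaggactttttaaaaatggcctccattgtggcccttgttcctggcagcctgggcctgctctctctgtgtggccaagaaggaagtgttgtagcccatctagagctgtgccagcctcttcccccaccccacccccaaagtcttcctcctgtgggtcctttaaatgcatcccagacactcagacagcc
The letters were TTCTTGGAA in Csn2, TTCTTAGAA in Csn1s1 and TTCCCAGAA in Glycam1, with the first base 93, 100 and 145 bases before the start. No such letters stood in the windows of Wap, Lalba or Csn1s2a. A match is a string of letters in a window and shows no binding.

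The libraries held 11027738 to 32956480 counts. The Ucp1-lineage GFP-positive mammary libraries stood apart, with a count for 10909 and 10560 genes, against 13761 to 19794 genes in the other 10 libraries. The sorted identity was read from marker lists. Summed levels of 16 basal markers were 3114 to 6106 counts-per-million (CPM) in GFP-positive mammary libraries, 10914 to 20953 CPM in GFP-negative ones and 221 to 812 CPM in brown adipocytes. All CPM values are scaled by TMM factors, edgeR's correction for library composition. Ucp1, the defining gene of brown fat, had 0 counts in all 4 GFP-positive mammary libraries and between 0.485 and 2.71 CPM in the GFP-negative ones. The 15 brown adipocyte markers still summed to 2548 to 6627 CPM in GFP-positive and 6303 to 15996 CPM in GFP-negative mammary libraries, mostly from Fabp4. In brown adipocytes they summed to 19993 to 44869 CPM. In GFP-positive mammary cells, the endothelial sum of the Ucp1 line (6440 to 9495 CPM) and the fibroblast sum of the Myf5 line (12416 to 20045 CPM) exceeded the basal sum. Below, the name myoepithelial follows the labels and the sort, not these sums. Whether replicates were separate animals is not stated in the labels, so a p-value here measures the spread between samples only, which may be technical.

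The milk protein genes took up a large share of every mammary library and almost none of the brown adipocyte libraries. In Ucp1-iCre mice they held 3.02% and 3.22% of all counts in GFP-positive cells, against 12.4% and 13.2% in GFP-negative cells. In Myf5-Cre mice they held 4.58% and 2.17% in GFP-positive cells, against 12.8% and 7.68% in GFP-negative cells. Each of the 4 GFP-positive libraries lay below each of the 4 GFP-negative ones. The mean share was 3.25% ± 0.999 in GFP-positive and 11.6% ± 2.60 in GFP-negative cells (SD, n = 4 each). The log2 difference was -1.85 (two-sided exact permutation test over 70 arrangements, p = 0.0286, the smallest these arrangements allow). The arrangements moved libraries between the lines, and arrangements kept within each line could not reach so small a p. Taken by line, the log2 difference was -2.04 in Ucp1-iCre mice and -1.66 in Myf5-Cre mice, where 2 libraries a group allow no p below 0.333. Counting error was far smaller than these differences: the 95% Wilson interval of the 4.58% share ran from 4.57% to 4.59%, and it covers counting error only. In bulk samples, fewer cells of a type and less RNA per cell cannot be told apart. Whether this RNA was made by the sorted cells or carried over from alveolar cells was not tested. Folds given for cells below are folds between sorted libraries.

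**Figure D1:**
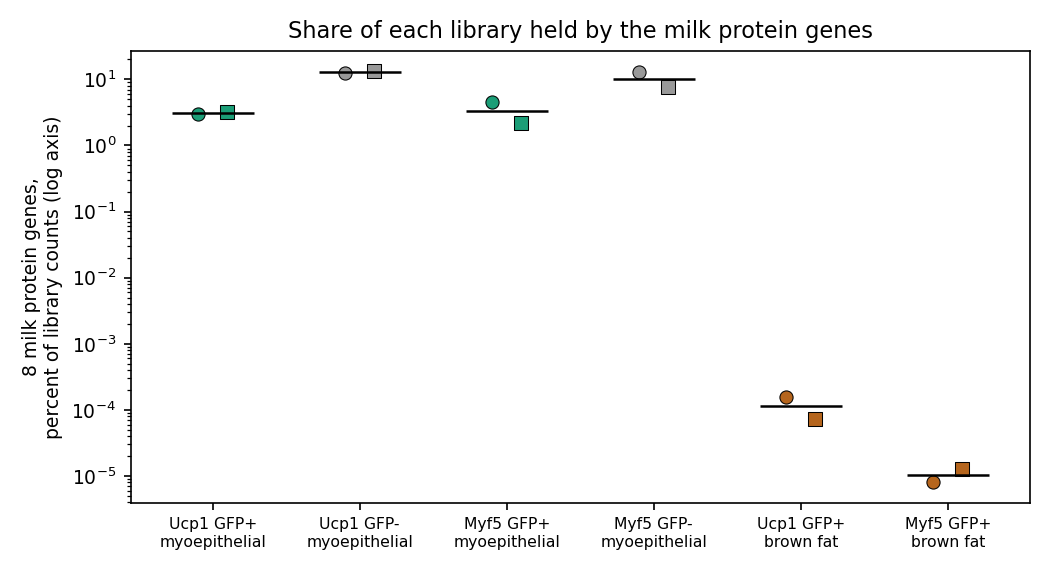
Share of library counts held by the 8 milk protein genes, in percent on a log axis, in each of the 12 libraries. Circles are replicate 1, squares replicate 2 and bars group means; the GFP-positive mammary libraries (green) sit between 2.17% and 4.58%, the GFP-negative ones (grey) between 7.68% and 13.2%, and brown adipocytes (brown) at or below 0.000154%.

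Csn2, the main calcium-binding casein, took more counts than any other gene in each of the 4 GFP-negative libraries, and ranked first or second by counts in each GFP-positive one. It had 8250.4 and 9220 CPM in GFP-positive cells of Ucp1-iCre mice, against 45587 and 47349 CPM in GFP-negative cells. In Myf5-Cre mice it had 16607 and 6943 CPM in GFP-positive cells, against 46923 and 21541 CPM in GFP-negative cells. The groups did not overlap in either line, and the spread between replicates was wider in Myf5-Cre mice. Csn2 fell in Ucp1-lineage cells, with a log2 fold of -2.41 (SE 0.63, edgeR quasi-likelihood test, Benjamini-Hochberg adjusted p = 0.0446). The call was lost with RLE factors (edgeR adjusted p = 0.0676), with a replicate block (edgeR adjusted p = 0.0599) and without any 1 of the 4 Ucp1 mammary libraries. In Myf5-lineage cells the log2 fold was -1.54 (SE 0.61), which did not pass the test (edgeR adjusted p = 0.495).

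Csn1s1, the αS1-casein that aids the export of other caseins from the endoplasmic reticulum, was also lower in GFP-positive than in GFP-negative cells of both lines. It had 3132 and 2160 CPM in Ucp1-lineage GFP-positive cells, against 9644 and 10710 CPM in GFP-negative cells of that line. It had 4566 and 2300.1 CPM in Myf5-lineage GFP-positive cells, against 13099 and 9636 CPM in the GFP-negative ones. The groups were separate in both lines. Csn1s1 fell by 1.94 on the log2 scale in Ucp1-lineage cells (SE 0.51, edgeR adjusted p = 0.0454), and in Myf5-lineage cells its log2 fold was -1.73 (SE 0.51, edgeR adjusted p = 0.343). The call in the Ucp1 line was lost with RLE factors (edgeR adjusted p = 0.0747), with the milk genes left out of the scaling (edgeR adjusted p = 0.0523) and with a replicate block (edgeR adjusted p = 0.0828). It was also lost without any 1 of the 4 Ucp1 mammary libraries or either Myf5 GFP-negative one.

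Csn1s2a and Csn1s2b, the mouse genes of the αS2-type caseins, lie next to each other. Csn1s2a had 3583 and 5439 CPM in Ucp1-lineage GFP-positive cells, against 19859 and 22884 CPM in GFP-negative cells. In Myf5-Cre mice Csn1s2a had 6123 and 2709.6 CPM in GFP-positive cells, against 19799 and 8625 CPM in GFP-negative cells. The GFP-positive libraries were lower throughout, although the lowest Myf5 GFP-negative library was within 1.5-fold of the highest Myf5 GFP-positive one. Csn1s2b had 4056 and 1956 CPM in Ucp1-lineage GFP-positive cells, against 8239 and 8092 CPM in GFP-negative cells. In Myf5-Cre mice Csn1s2b had 6000.05 and 2234 CPM in GFP-positive cells, against 15392 and 7792 CPM in GFP-negative cells. Csn1s2b thus separated the groups by less than its neighbour in Ucp1-iCre mice. Its log2 folds were -1.44 (SE 0.66) in the Ucp1 line and -1.49 (SE 0.66) in the Myf5 line, and neither passed the test.

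Csn3, which encodes the micelle-stabilising κ-casein, had 2852 and 2766 CPM in Ucp1-lineage GFP-positive cells, against 12464 and 15013 CPM in GFP-negative cells. In Myf5-Cre mice Csn3 had 5230 and 1915 CPM in GFP-positive cells, against 16516 and 7237 CPM in GFP-negative cells. The groups did not overlap. Its log2 fold in the Ucp1 line, -2.29 (SE 0.65), lay just outside the threshold (edgeR adjusted p = 0.0557), as did that of Csn1s2a at -2.24 (SE 0.63, edgeR adjusted p = 0.0553). An antisense gene overlaps Csn3 and was not among the counted genes; no other annotated gene overlaps a member. The strand setting of the counting is not given in the sources used here, so reads from the overlapping part could not be assigned by strand.

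Wap had 2632 and 3973 CPM in Ucp1-lineage GFP-positive cells, against 15174 and 19529 CPM in GFP-negative cells. In Myf5-Cre mice Wap had 4006 and 2121 CPM in GFP-positive cells, against 12637 and 9505 CPM in GFP-negative cells. The groups were well apart in both lines. Wap fell in Ucp1-lineage cells, with a log2 fold of -2.39 (SE 0.59, edgeR adjusted p = 0.0316). The call was lost without replicate 1 of the Ucp1 GFP-positive cells or either replicate of the Ucp1 GFP-negative cells. In Myf5-lineage cells its log2 fold was -1.85 (SE 0.58, edgeR adjusted p = 0.35).

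Lalba, the regulatory subunit of lactose synthase, had lower CPM than the caseins and Wap and a wide spread in Myf5-lineage cells. It had 151 and 128 CPM in Ucp1-lineage GFP-positive cells, against 632 and 692 CPM in GFP-negative cells. In Myf5-Cre mice it had 528 and 62.9 CPM in GFP-positive cells, against 992 and 441 CPM in GFP-negative cells. Replicate 1 of the Myf5-lineage GFP-positive cells was above the lower GFP-negative library, and Lalba was the only member whose groups overlapped. Its log2 folds of -2.25 (SE 0.92) in the Ucp1 line and -1.28 (SE 0.90) in the Myf5 line did not pass the test.

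Glycam1 showed the largest difference of the 8. It had 91.1 and 85.5 CPM in Ucp1-lineage GFP-positive cells, against 829 and 1257 CPM in GFP-negative cells of that line. In Myf5-Cre mice it had 53.3 and 41.7 CPM in GFP-positive cells, against 199 and 218 CPM in GFP-negative cells. The groups did not overlap in either line. Glycam1 fell by 3.56 on the log2 scale in Ucp1-lineage cells (SE 0.45, edgeR adjusted p = 0.00244), and its log2 fold was -2.13 (SE 0.42, edgeR adjusted p = 0.253) in Myf5-lineage cells.

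**Figure D2:**
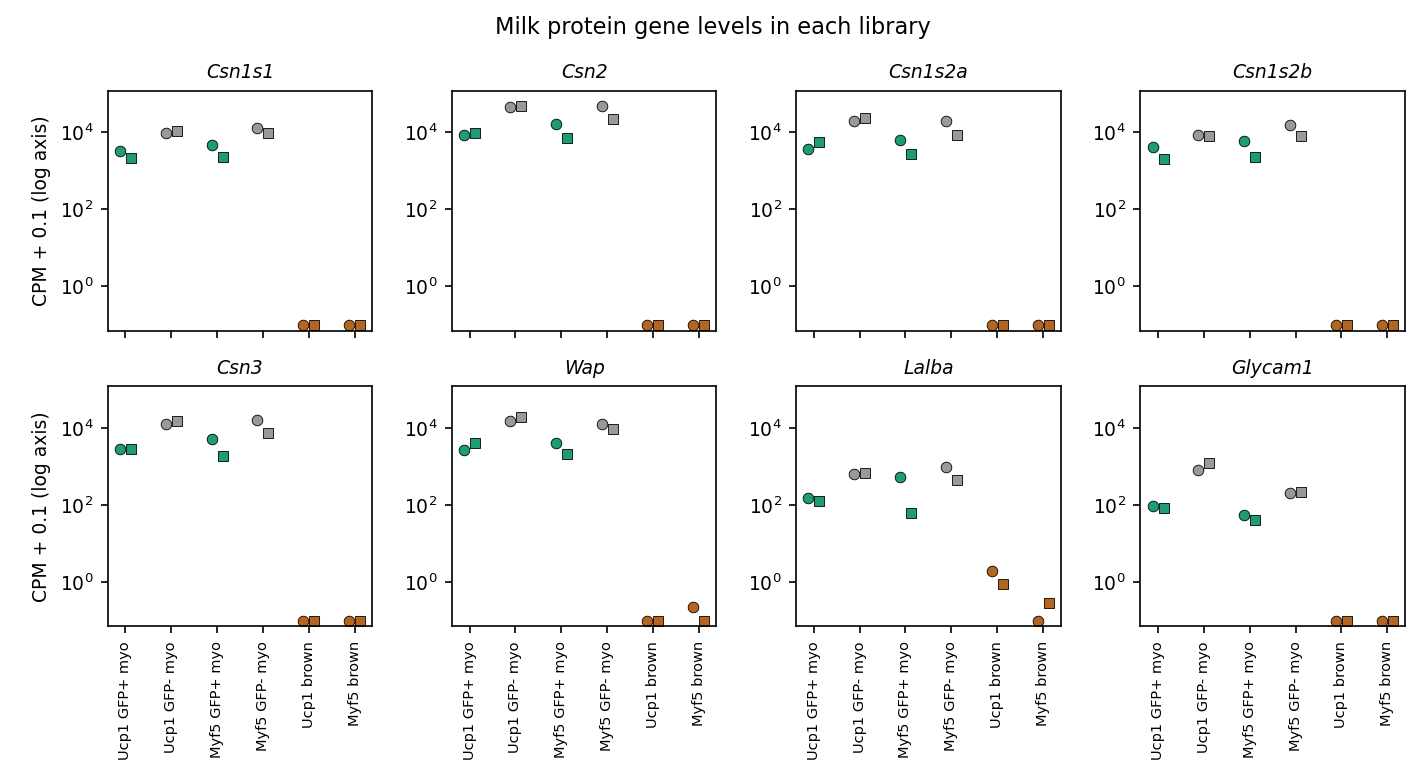
Level of each of the 8 genes in each library, as CPM plus 0.1 on a log axis; circles are replicate 1 and squares replicate 2, with GFP-positive mammary cells in green, GFP-negative ones in grey and brown adipocytes in brown. Points at the bottom are libraries with 0 counts, and Lalba is the member with counts in 3 of the 4 brown adipocyte libraries.

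In the Ucp1 line, 4 of the 8 genes fell (Csn2, Csn1s1, Wap and Glycam1) and none rose, where 14% of all genes tested were called lower and 14.3% were called in either direction. The median log2 fold of the 8 genes was -2.27, against -0.69 over all genes tested, a difference of -1.58. That difference was -1.15 with a replicate block and -0.40 with limma-voom, where the median over all genes was -1.88. All 8 had GFP-positive libraries below both GFP-negative ones, a separation that 48.1% of all genes tested shared. Of the 1602 genes that averaged 100 CPM or more over the 8 mammary libraries, 4.12% were called lower. The number called moved with single libraries, and each such fit leaves 1 library in a group. Across the left-out libraries the log2 fold ran from -3.84 to -3.24 for Glycam1, -2.51 to -2.30 for Csn2 and -2.07 to -1.02 for Csn1s2b.

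In the Myf5 line, none of the 8 genes was called by edgeR, where 0% of all genes tested were called. All 8 log2 folds were below 0, from -2.13 for Glycam1 to -1.28 for Lalba, with a median of -1.71 against -0.06 over all genes tested. At an unadjusted edgeR p under 0.05 there were 6 members, where 9.28% of all genes tested had such a p. DESeq2 called 1 member lower (Glycam1), where it called 1.4% of all genes tested lower. Limma-voom called 3 lower (Csn1s1, Wap and Glycam1), where it called 1.55% of all genes tested lower. For 7 of the 8 both GFP-positive libraries lay below both GFP-negative ones, a separation shared by 20.2% of all genes tested.

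With the GFP effect averaged over both lines, 6 of the 8 genes fell, where 11.4% of all genes tested and 3.06% of those that averaged 100 CPM or more were called lower. These were Glycam1 (log2 fold -2.85, SE 0.31, edgeR adjusted p = 0.00365), Wap (log2 fold -2.12, SE 0.42, edgeR adjusted p = 0.0151), Csn3, Csn2, Csn1s2a and Csn1s1. The log2 folds of the last 4 ran from -2.01 to -1.84. Csn1s2b (log2 fold -1.47, SE 0.46, edgeR adjusted p = 0.0885) and Lalba (log2 fold -1.76, SE 0.64, edgeR adjusted p = 0.113) did not pass. For 7 of the 8 genes all 4 GFP-positive libraries lay below all 4 GFP-negative ones, against 7.54% of all genes tested and 4.68% of those that averaged 100 CPM or more. The number called moved with single libraries, and each such fit leaves 1 library in a group. Across the left-out libraries the log2 fold ran from -2.99 to -2.69 for Glycam1 and from -2.82 to -1.35 for Lalba. With RLE factors the number called was 4, where Csn1s2a and Csn3 were lost. It was also 4 with a replicate block, where Csn1s1 (edgeR adjusted p = 0.0530) and Csn2 (edgeR adjusted p = 0.0544) were lost. Of all genes tested, 10.5% were called lower with RLE factors and 3.86% with the block.

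**Figure D3:**
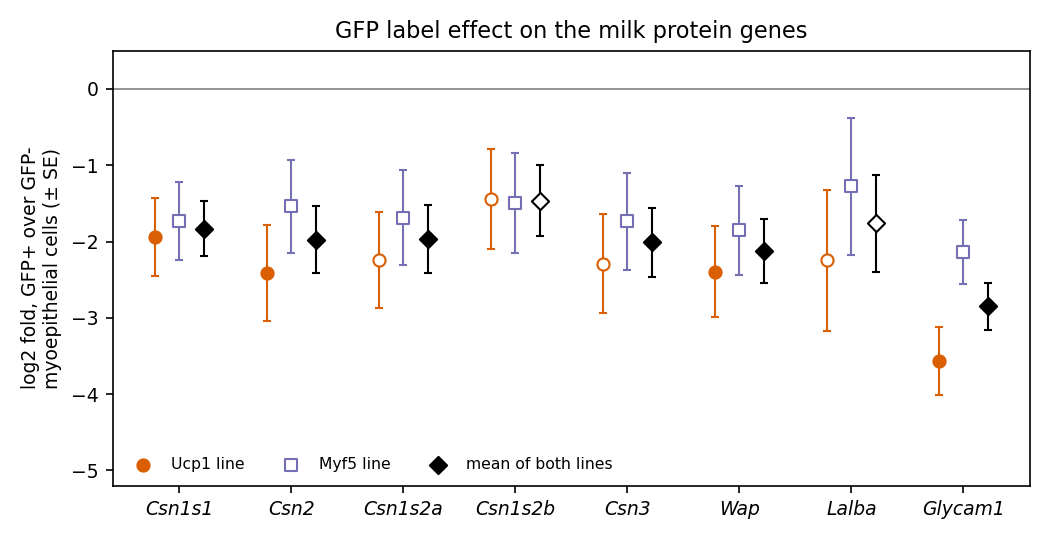
Fitted log2 fold of GFP-positive over GFP-negative myoepithelial cells for each gene, with its standard error, in the Ucp1 line (circles), the Myf5 line (squares) and averaged over both (diamonds). Filled symbols have an edgeR adjusted p under 0.05; all 24 values lie below 0, and those of Glycam1 are lowest.

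The GFP effect did not pass a test of difference between the lines for any of the 8 genes (edgeR, 0 called, 11% of all genes tested called). DESeq2 and limma-voom also called 0, where they called 18.3% and 15.9% of all genes tested. At an unadjusted edgeR p under 0.05 there was 1 member, Glycam1, against 24% of all genes tested. Its GFP effect was 1.43 log2 units more negative in the Ucp1 line than in the Myf5 line (SE 0.57, edgeR adjusted p = 0.181). Between the lines directly, none of the 8 was called in GFP-positive cells by edgeR, where 17.3% of all genes tested were called. DESeq2 and limma-voom called 0 members there, against 31.7% and 24.3% of all genes tested. At an unadjusted edgeR p under 0.05 there were 0 members, against 34.8% of all genes tested. In GFP-negative cells edgeR also called none (0% of all genes tested called). There Glycam1 had 829 and 1257 CPM in the Ucp1 line, against 199 and 218 CPM in the Myf5 line. Its log2 fold of 2.32 (SE 0.42) had the only unadjusted p under 0.05 among the members, with an edgeR adjusted p of 1, where 3.56% of all genes tested had an unadjusted p under 0.05. DESeq2 called Glycam1 alone among the members, where it called 0.254% of all genes tested. Limma-voom called none, and called 0% of all genes tested.

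Per length, the order of the 8 genes was similar in all mammary libraries. CPM was divided by the length in kilobases of the longest principal transcript in GENCODE M21. In Ucp1-lineage GFP-negative cells the level per kilobase was 34965 ± 937 for Csn2, 31491 ± 5588 for Wap and 23230 ± 2326 for Csn1s2a (SD, n = 2 each). Csn2 and Wap did not differ there beyond their spread. Csn2 held rank 1 or 2 in every mammary library, Wap ranks 1 to 3, and Lalba and Glycam1 ranks 7 and 8. With the shortest principal transcripts Csn2 ranked first in every mammary library, so the order of Csn2 and Wap rested on the transcript chosen.

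The make-up of the milk protein counts was compared next. Csn2 made up 36.4% ± 2.34 of the 8 genes' counts in GFP-positive and 37.2% ± 3.05 in GFP-negative cells (SD, n = 4 each). Csn3 made up 11.2% ± 0.76 in GFP-positive and 11.8% ± 0.97 in GFP-negative cells. Wap made up 11.7% ± 2.64 in GFP-positive and 13.4% ± 2.40 in GFP-negative cells. These 3 shares differed between the groups by less than their SD. The log2 ratio of each of the other 7 genes to Csn2 was compared between GFP-positive and GFP-negative cells. None of the 7 passed (exact permutation tests, 0 at an unadjusted p under 0.05, all adjusted p at least 0.933). With 7 ratios and a smallest p of 0.0286, no single ratio could pass the adjustment.

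The largest ratio difference was that of Glycam1. Glycam1 made up 0.368% and 0.332% of the milk protein counts in Ucp1-lineage GFP-positive cells, against 0.738% and 1.002% in the GFP-negative ones. In Myf5-Cre mice it made up 0.124% and 0.227% in GFP-positive cells, against 0.159% and 0.335% in GFP-negative cells. The groups were separate in the Ucp1 line and overlapped in the Myf5 line. Its log2 ratio to Csn2 was lower by 0.85 in GFP-positive cells, as a mean over both lines (exact permutation test, p = 0.257, adjusted p = 0.933). Over all mammary libraries it was 1.48 higher in the Ucp1 than in the Myf5 line (exact permutation test, p = 0.0571, adjusted p = 0.2). Csn1s2a had the smallest p between the lines, with a log2 ratio to Csn2 that was 0.29 higher in the Ucp1 line (exact permutation test, p = 0.0286, adjusted p = 0.2).

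**Figure D4:**
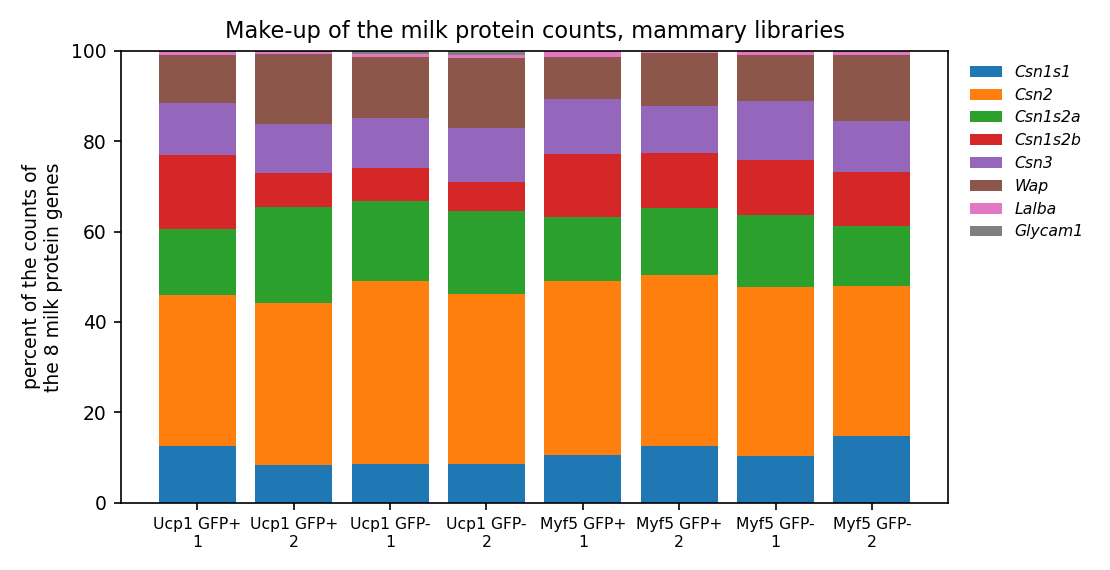
Percent of the counts of the 8 milk protein genes that each gene contributed, in each of the 8 mammary libraries, as bars stacked to 100 percent. Csn2 contributes 33.1% to 40.5% in every library, and Lalba and Glycam1 form the thin bands at the top.

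Luminal and basal cell markers were also lower in GFP-positive libraries. The summed level of 16 luminal epithelial markers was 297 to 496 CPM in GFP-positive and 1326 to 1536 CPM in GFP-negative libraries, with no overlap. A large part of it was Fabp3, at 140 to 187 CPM in GFP-positive and 453 to 764 CPM in GFP-negative libraries. Fabp3 is not particular to luminal cells: it had 242 and 257 CPM in Myf5 brown adipocytes, where the luminal sum was 271 to 281 CPM. In Ucp1 brown adipocytes the luminal sum was 70.3 to 75.2 CPM. The shares and ratios below therefore rest in large part on Fabp3. The log2 difference of the luminal marker share was -1.80 and that of the basal marker share -1.63 (exact permutation tests, p = 0.0286 each, the smallest possible, adjusted p = 0.0571 over 4 quantities). The share of the 8 milk protein genes had differed by -1.85. Per luminal marker count, libraries held 58.0 and 51.9 milk protein counts in Ucp1-lineage GFP-positive cells, against 75.4 and 81.7 in GFP-negative cells. In Myf5-Cre mice they held 145 and 55.1 milk protein counts per luminal count in GFP-positive cells, against 90.5 and 49.0 in GFP-negative cells. This ratio was lower in the GFP-positive libraries of the Ucp1 line and overlapped in the Myf5 line. Over both lines its log2 difference was -0.05 (exact permutation test, p = 1). Milk protein counts per basal marker count differed by -0.22 on the log2 scale (exact permutation test, p = 0.629).

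With the label averaged over both lines, 4 of 5 erythroid and 3 of 12 immune markers fell by edgeR, where 11.4% of all genes tested were called lower. The immune ones were Cd68, Igha and Ptprc, at or near 0 CPM in Ucp1-lineage GFP-positive cells. Their log2 folds were -9.78, -10.7 and -10.8 in the Ucp1 line. In the Myf5 line they were -1.31, -1.03 and 0.26, so Ptprc did not fall there. The summed level of 5 erythroid markers was 18.4 to 99.2 CPM in GFP-positive and 256 to 379 CPM in GFP-negative libraries. Among 12 immune markers it was 525 to 1007 CPM in GFP-positive and 1502 to 2594 CPM in GFP-negative libraries. Of the 12, 6 and 7 were at 0 in the Ucp1 GFP-positive libraries and 3 and 4 in the Myf5 ones, against none in a GFP-negative library. Of 15 brown adipocyte markers 2 fell (Ucp1 and Cidea). Fibroblast markers moved in opposite directions in the lines. Their summed level was 229 to 871 CPM in GFP-positive and 3006 to 3744 CPM in GFP-negative cells of the Ucp1 line. In that line 4 of 10 fell (Dpt, Dcn, Lum and Thy1), where 14% of all genes tested were called lower. In the Myf5 line the summed level was 12416 to 20045 CPM in GFP-positive and 588 to 922 CPM in GFP-negative cells, and all 10 log2 folds were above 0. No marker was called by edgeR in that line, where 0% of all genes tested were called. The GFP effect differed between the lines for 7 of the 10 by edgeR, where 11% of all genes tested were called. Dpt, a protein of the extracellular matrix, had 0 and 0.0243 CPM in Ucp1-lineage GFP-positive cells, against 21.5 and 19.3 CPM in GFP-negative ones. In Myf5-Cre mice Dpt had 500 and 220 CPM in GFP-positive cells, against 15.4 and 9.67 CPM in GFP-negative ones. Averaged over both lines Dpt was called lower, an average of a log2 fold of -10.0 in the Ucp1 line and 4.84 in the Myf5 line. The summed endothelial level was 6440 to 9495 CPM in GFP-positive and 6421 to 6574 CPM in GFP-negative cells of the Ucp1 line, which overlapped. In the Myf5 line it was 1461 to 1895 CPM in GFP-positive and 4896 to 5419 CPM in GFP-negative cells, with no overlap. Of 10 endothelial markers, averaged over both lines, edgeR called none and 0 had an unadjusted p under 0.05, against 24.8% of all genes tested. DESeq2 and limma-voom also called none of the 10, against 18.2% and 19.6% of all genes tested. The part of any of these cell types in the milk protein result was not tested.

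**Figure D5:**
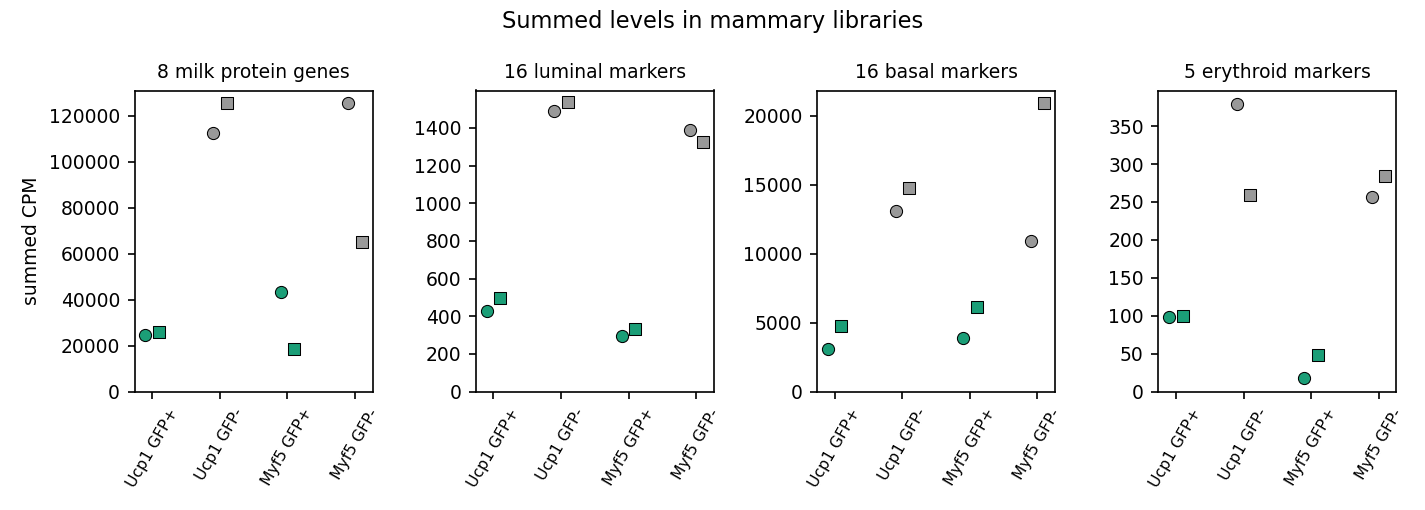
Summed CPM, on linear axes from 0, of the 8 milk protein genes, 16 luminal markers, 16 basal markers and 5 erythroid markers in the 8 mammary libraries; circles are replicate 1 and squares replicate 2. In all 4 panels every GFP-positive library (green) lies below every GFP-negative one (grey).

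Of the 16 luminal markers, 15 were tested and 6 fell with the label averaged over both lines, where 11.4% of all genes tested were called lower. The list's median log2 fold was -1.72, against -0.44 over all genes tested. Fabp3, a fatty acid binding protein of milk-secreting cells, had a mean of 172 ± 21.4 CPM in GFP-positive cells, against 606 ± 134 CPM in GFP-negative ones (SD, n = 4 each). It fell by 1.82 on the log2 scale (SE 0.28, edgeR adjusted p = 0.00531). Krt8, a keratin of luminal cells, averaged 52.4 ± 67.4 CPM in GFP-positive cells, against 320 ± 50.0 CPM in GFP-negative cells, and fell (edgeR adjusted p = 0.0443). The other 4 were Spint2, Spint1, Krt7 and Cdh1. Of the 16 basal markers, 7 fell (Krt5, Krt14, Krt15, Krt17, Mylk, Tagln and Cnn1), with a median log2 fold of -2.81, and none of either list rose.

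Of 18 other secreted milk proteins and milk enzymes, 3 fell with the label averaged over both lines and none rose, a share near the 11.4% of all genes tested that were called lower. The list's median log2 fold was -1.16, against -0.44 over all genes tested. Lcn2, an iron-scavenging lipocalin, averaged 63.5 ± 16.9 CPM in GFP-positive cells, against 309 ± 104 CPM in GFP-negative ones (SD, n = 4 each), and fell by 2.26 on the log2 scale (SE 0.37, edgeR adjusted p = 0.00636). The others were Lpo, the peroxidase of milk, and Pthlh, a hormone that mobilises maternal bone calcium. Pthlh had 0 and 0.0728 CPM in Ucp1-lineage GFP-positive cells, against 24.2 and 19.96 CPM in GFP-negative ones. In Myf5-Cre mice Pthlh had 29.9 and 38.5 CPM in GFP-positive cells, against 32.4 and 21.5 CPM in GFP-negative ones, which overlapped. Cd36, a fatty acid receptor of the milk fat globule membrane, had the highest CPM of this list. It averaged 3486 ± 1203 CPM in GFP-positive cells, against 6114 ± 2703 CPM in GFP-negative cells and did not pass the test (edgeR adjusted p = 0.103).

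Of 19 genes of lactogenic signalling, 3 fell with the label averaged over both lines (Pgr and Esr1, the progesterone and oestrogen receptors, and the luminal factor Gata3) and none rose, a share near the 11.4% of all genes tested that were called lower. The list's median log2 fold was -0.10, against -0.44 over all genes tested. Esr1 had 0 counts in both Ucp1-lineage GFP-positive libraries, against 5.35 and 3.58 CPM in the GFP-negative ones. In Myf5-Cre mice Esr1 had 15.998 and 14.95 CPM in GFP-positive cells, against 4.08 and 3.88 CPM in GFP-negative ones. The lines thus differed in direction for Esr1, and the difference passed the test (edgeR, 11% of all genes tested called). The receptor and kinase of the prolactin pathway and its Stat factors are described here although their values were seen first. Stat5a, the main Stat factor of the lactating gland, had 34.4 and 84.8 CPM in Ucp1-lineage GFP-positive cells, against 31.8 and 28.5 CPM in GFP-negative cells. In Myf5-Cre mice Stat5a had 14.1 and 17.5 CPM in GFP-positive cells, against 20.4 and 22.3 CPM in GFP-negative ones. The direction differed between the lines, and the mean log2 fold was 0.27 (SE 0.40, edgeR adjusted p = 0.808). Elf5, the alveolar factor that acts with Stat5, had 4.96 and 1.07 CPM in Ucp1-lineage GFP-positive cells, against 25.0 and 26.8 CPM in GFP-negative ones. In Myf5-Cre mice Elf5 had 5.60 and 2.85 CPM in GFP-positive cells, against 13.4 and 16.2 CPM in GFP-negative ones. It was lower in all 4 GFP-positive libraries, with a mean log2 fold of -2.45 (SE 0.79) that did not pass the test (edgeR adjusted p = 0.0841). Stat5b fell in the Ucp1 line (log2 fold -2.46, SE 0.65, edgeR adjusted p = 0.0346). Prlr, the prolactin receptor, had 42.2 and 15.96 CPM in Ucp1-lineage GFP-positive cells, against 7.51 and 9.38 CPM in GFP-negative ones. In Myf5-Cre mice Prlr had 0 and 1.13 CPM in GFP-positive cells, against 11.002 and 5.58 CPM in GFP-negative ones. Jak2, the kinase bound to that receptor, had 454 and 282 CPM in Ucp1-lineage GFP-positive cells, against 141 and 93.6 CPM in GFP-negative ones. In Myf5-Cre mice Jak2 had 48.1 and 83.3 CPM in GFP-positive cells, against 26.3 and 68.4 CPM in GFP-negative ones, which overlapped. Both were higher in the GFP-positive libraries of the Ucp1 line, and neither passed the test in either line.

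In brown adipocytes the milk protein genes were almost absent from the counts. The 8 genes together had 17 and 9 counts in the Ucp1 line, which is 0.000154% and 7.18e-05% of the library. They had 1 and 2 counts in the Myf5 line, which is 8.06e-06% and 1.26e-05%. Csn1s1, Csn2, Csn1s2a, Csn1s2b, Csn3 and Glycam1 had 0 counts in all 4 brown adipocyte libraries. All 8 genes were higher in GFP-positive myoepithelial cells than in brown adipocytes of the same line by edgeR, where 5.34% of all genes tested were called higher in the Ucp1 line and 10.9% in the Myf5 line. The largest adjusted p was 0.00333 in the Ucp1 line and 0.00159 in the Myf5 line. Members with no or a single count in brown adipocytes passed the filter on low counts only through the mammary libraries. Their calls restate that absence and add no support to it. The log2 difference of the share was 16.6 (exact permutation test, n = 4 each, p = 0.0286, the smallest possible). With almost no counts in any brown adipocyte library the groups were bound to separate, so this p adds no support either.

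Where brown adipocytes had no counts, the fold is a lower bound against 3 counts in the group's pooled libraries. That is 0.141 CPM in the Ucp1 line and 0.157 CPM in the Myf5 line. These 3 counts are the one-sided upper 95% limit that 0 counts allow. The two-sided limit, the kind used in the intervals of Wap and Lalba, is 3.69 counts and would make these bounds lower. Csn2 was at least 61988-fold higher in Ucp1-lineage GFP-positive myoepithelial cells and at least 75025-fold higher in Myf5-lineage ones. Glycam1 was at least 626-fold higher in the Ucp1 line and at least 303-fold higher in the Myf5 line. Wap had a single count, in replicate 1 of the Myf5 brown adipocytes, for a ratio of 58560 with a 95% counting interval from 10510 to 2.313e+06 in that line, and it was at least 23434-fold higher in the Ucp1 line.

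Lalba was the exception in brown adipocytes. It had 17 and 9 counts in the Ucp1 line (exact Poisson 95% intervals 9.90 to 27.2 and 4.12 to 17.1), against 0 and 2 counts in the Myf5 line. It made up 28 of the 29 milk protein counts in the 4 libraries. The mammary libraries held 31.4 to 110 Csn2 counts for each Lalba count, and the brown adipocyte libraries held no Csn2 count beside their 28 Lalba counts. In GFP-positive myoepithelial cells Lalba was 114-fold higher than in brown adipocytes of the Ucp1 line (95% counting interval 77.8 to 175) and 2825-fold higher in the Myf5 line (782 to 23324). That Myf5 fold rested on replicate 1, at 5048-fold, and was 601-fold with replicate 2 alone. Between the lines the brown adipocyte difference of Lalba did not pass the test (log2 fold 3.56, SE 1.34, edgeR adjusted p = 0.28, 1.32% of all genes tested called). Lalba was not called there by DESeq2 or limma-voom either, where DESeq2 called 8.77% and limma-voom 0.248% of all genes tested. Its unadjusted edgeR p was under 0.05, as was that of 13% of all genes tested. Of the other members, Wap had a single count in brown adipocytes and the rest had none, so this comparison could not call them. No gene of GENCODE M21 overlaps Lalba, and none of its transcript's 31-base words occurs in another gene.

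The counts at the casein cluster lay almost wholly in the casein genes. Within 250 kb of it GENCODE M21 places 16 other protein-coding genes, 13 of which were in the count tables. Of these, 9 had 0 counts in all 12 libraries (Ugt2b38, Ugt2a2, Sult1b1, Prr27, 2310003L06Rik, Cabs1, Smr3a, Gm11116 and Gm11115). The other 4 were Sult1d1, Sult1e1, Odam and Smr2, with at most 76 counts in a library. The lowest casein count in a mammary library was 54423. Odam and Prr27 lie inside the cluster, between Csn1s2b and Csn3. Odam, an enamel protein gene, had 0 counts in all 4 GFP-positive mammary libraries and 13, 23 and 10 counts in 3 of the GFP-negative ones.

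The genes most like the 8 milk protein genes across the 8 mammary libraries were Fabp3, Olah, Msrb1, Cidea and Kcnk1. Likeness was the root mean square difference of log2(CPM + 1), centred per gene, from the mean of the 8 genes, among 8813 genes that averaged 10 CPM or more. It was 0.32 log2 units for Fabp3 and 0.47 for Kcnk1, against a median of 1.41 over these genes, and is a description of these libraries. Among the members themselves it ran from 0.13 for Csn3 to 0.88 for Glycam1. Olah, a thioesterase that releases medium-chain fatty acids, averaged 43.7 ± 22.1 CPM in GFP-positive cells, against 157 ± 63.2 CPM in GFP-negative ones (SD, n = 4 each) and had 0 counts in brown adipocytes. Cidea, which acts on lipid droplets in brown fat and in milk lipid secretion, averaged 152 ± 30.1 CPM in GFP-positive cells, against 438 ± 114 CPM in GFP-negative cells. Cidea was 815 to 4101 CPM in brown adipocytes, so its likeness held in the mammary libraries and not across tissues.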

How the data were processed

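Bulk RNA was sequenced from 12 libraries of sorted cells, in 6 groups of 2 taken from the labels. Per the labels' protocols, total RNA (RNeasy Micro) was amplified as cDNA by SMART-Seq v4 and run on an Illumina HiSeq instrument. PCR amplification without molecular identifiers means that counting intervals cover counting error only. The authors deposited raw read counts per Ensembl gene, 1 file per library, and the submitters' processing notes name TopHat, HTSeq, DESeq2 and mm10. Tool versions, the annotation release and how strand and multiply matching reads were treated were not given in the sources used here.

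Counts were joined into 38924 genes and named from GENCODE M21, which gave 37607 symbols. Library totals ran from 11027738 to 32956480 counts. The main test was the edgeR 4.0.16 quasi-likelihood test in R 4.3.3, with TMM factors, a minimum count of 10 (filterByExpr), 1 fit over all 12 libraries and Benjamini-Hochberg adjustment at 0.05 over 16953 genes. Standard errors are the log2 fold over the square root of F. Shares, with no counts added, and ratios (0.5 counts added) were compared by exact permutation over libraries with Python 3.11.15 and scipy 1.17.1. Arrangements for the GFP comparison were not kept within a line. Alternatives were RLE factors, library totals alone, milk genes left out of the scaling, no filter, DESeq2 1.42.0, limma-voom (limma 3.58.1), subsets of libraries, a replicate block and each library left out. The edgeR script was tested on simulated counts with 200 genes changed by 4 log2 units in the Ucp1 GFP-positive mammary cells. It called 43.5% of these genes and 0.012% of the others. A gene that did not pass the test may thus still differ.

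The members and gene lists were chosen with earlier results of these data known. Named list genes were up to 3 of highest mean CPM and up to 3 called genes of smallest adjusted p per GFP comparison; all members, the 5 genes most like them and all protein-coding genes within 250 kb of the casein cluster were also named. At most 2.63% of a member's 31-base words occurred in another gene. Promoter windows are from RefSeq (GRCm38.p6); Csn1s2b and Csn3 are named only. The gene list for lactose synthesis and milk ion transport is not reported here.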

Additional observations from a re-analysis of the deposited data

Results flagged for a closer look

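In 35 sets of 4 libraries examined for a library far from the others, 4 were flagged, and chance flags about 1 in 20. The milk protein share of the GFP-negative myoepithelial libraries had a gap of 0.855 of the range below the other 3, at replicate 2 of the Myf5 line (7.68%, against 12.4% to 13.2%). Csn2 in the same libraries had a gap of 0.932 of the range, with 21541 CPM in that library and 45587 to 47349 CPM in the others. Csn1s2b there had a gap of 0.941 of the range, at replicate 1 of the Myf5 line (15392 CPM, against 7792 to 8239 CPM). Wap in brown adipocytes had a gap of 1, the whole range, which is a single count in replicate 1 of the Myf5 line. No member's GFP effect passed a test of difference between the lines.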

How the results depend on the processing

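The direction of every member's GFP effect, in each line and averaged over both, was the same under all alternatives run, each left-out library included. The number called lower was less stable. In the Ucp1 line it was 4 as reported, 2 with RLE factors (Csn1s1 and Csn2 lost), 8 with limma-voom, 2 with the replicate block (the same 2 lost) and 1 to 7 when each library was left out. Of all genes tested in that line, 14% were called lower as reported, 13.3% with RLE factors, 7.32% with the replicate block and 28.3% with limma-voom. That share also moved between left-out fits, not always in the same direction as the number of members called lower. Averaged over both lines it was 6, with 4 under RLE factors, 4 under the replicate block, 8 by limma-voom (19% of all genes tested called lower) and 1 to 7 when each library was left out. Averaged over both lines, 10.5% of all genes tested were called lower with RLE factors and 3.86% with the block, against 11.4% as reported. In the Myf5 line the number of members called lower was 0, with 1 by DESeq2 and 3 by limma-voom. Between the lines in GFP-negative cells the number called in either direction was 0, with 1 by DESeq2. The cause of these shifts was not tested. All 8 were called against brown adipocytes in both lines under every alternative with 2 libraries a group. For members with no or a single count in brown adipocytes these calls restate that absence. The labels do not say whether a replicate number marks the same animal in both GFP groups. Deviations of same-numbered libraries correlated at 0.56 in Myf5-Cre and 0.08 in Ucp1-iCre mice over 9207 genes, with 1 pair of deviations a line, so the numbers were not taken to pair the samples. An exact permutation within same-numbered pairs (replicate block) left the share difference at -1.85 with p = 0.125, the smallest that 4 pairs allow. The median of all genes in the Ucp1 line moved with the scaling, between -0.49 with library totals alone and -0.69 with TMM. Relative to it the members' median was -1.58 with both, -1.15 with the replicate block and -0.40 with limma-voom, whose median over all genes was -1.88. With 2 libraries a group, permutation within a line allows no p below 0.333.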
